A study of Mus musculus with 4 samples.

Results

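The keratin mRNAs of the intestinal epithelium were examined in Musashi-1 (Msi1) CLIP-seq, at Krt20, Krt19, Krt8 and Krt18. CLIP-seq joins an RNA-binding protein to the RNA it touches with ultraviolet light, recovers the protein with an antibody and sequences the attached fragments. The 4 genes were chosen by the positions and scores of peaks in these same lists, so their values describe the data and carry no test. A peak was taken as a member when it overlapped the gene's window on the gene's strand, which gave 43 peaks of 240811 in all. The windows, in the mouse build mm9, were chr11:99289500-99299500 (minus strand) for Krt20, chr11:100001500-100007500 (minus) for Krt19, chr15:101827000-101835000 (minus) for Krt8 and chr15:101858500-101862600 (plus) for Krt18. No mm9 gene annotation or genome was used here, so peaks are placed by their distance from the window's 3′ edge and not by exon, intron or UTR, and no sequence is shown.

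There were 4 libraries in 2 groups of 2. The wild-type libraries came from intestinal crypts of control mice without doxycycline. The TRE-Msi1 libraries came from total intestinal epithelium of mice with a doxycycline-responsive Msi1 transgene, 24 h after doxycycline was started. The sources used here give neither the strain, age and sex of the mice nor the source of the doxycycline-dependent activator. In all 4 libraries the antibody was against Msi1, cells were irradiated at 265 nm and RNA was taken from the gel near 50 kD. No library served as a control for background, so a peak is a called position on RNA. Cell source, transgene and drug differ between the groups at once, and their parts in any difference cannot be told apart. Nor can fewer cells of a type be told apart from less RNA per cell.

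Keratins form the intermediate filaments of epithelial cells, and each filament pairs a type I with a type II protein. Krt8 is the main type II keratin of simple epithelia such as the gut lining, and Krt18, Krt19 and Krt20 are type I keratins that can pair with it. Krt19 is made in crypts as well as on villi, whereas Krt20 is a marker of differentiated cells towards the villus tip. Msi1 is an RNA-binding protein of the crypt stem and progenitor zone that regulates the translation of mRNAs, often through their 3′ UTRs.

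The lists differed in length and form, which bears on every count. They held 4863 and 5578 peaks in the wild-type pair, and 189594 and 40776 peaks in TRE-Msi1 replicates 1 and 2. Read depth per library is unknown. Median peak width was 40 bp in TRE-Msi1 replicate 1 and 74 to 75 bp in the others. The score is the authors' own and its unit is not stated, so each peak is given by its percentile within its own list, where 100 is the strongest. Wild-type replicate 1 has a score of 0 throughout. Its percentiles are row positions, which assumes that its rows run from strong to weak, and this cannot be checked in that list. In the others, row number and score had Spearman's rho across peaks of -0.963 (wild-type replicate 2), -0.989 and -0.905 (TRE-Msi1 replicates 1 and 2). Repeated intervals played no part, since 0 keratin peaks shared identical coordinates within a list.

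Across the 4 windows, more peaks were listed in both TRE-Msi1 libraries than in both wild-type libraries. There were 8 and 6 peaks in wild-type replicates 1 and 2, and 18 and 11 in TRE-Msi1 replicates 1 and 2. The means were 7 ± 1.41 and 14.5 ± 4.95 (SD, n = 2 each), a difference of 7.5 peaks. Leaving out TRE-Msi1 replicate 1 gave a difference of 4, and leaving out TRE-Msi1 replicate 2 one of 11. The genes did not move as one. Krt20 and Krt8 had more peaks in both TRE-Msi1 libraries, Krt19 had fewer, and Krt18 held a single wild-type peak.

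As a share of each list, the order was the opposite. The keratin windows held 1.65 of every 1000 peaks in wild-type replicate 1 (95% exact binomial interval 0.710 to 3.24) and 1.08 in replicate 2 (0.395 to 2.34). They held 0.0949 per 1000 in TRE-Msi1 replicate 1 (0.0563 to 0.150) and 0.270 in TRE-Msi1 replicate 2 (0.135 to 0.483). Both wild-type shares were above both TRE-Msi1 shares. These intervals take each peak as an independent count and hold no other error. The shares divide by 4863 and 5578 wild-type peaks against 189594 and 40776 TRE-Msi1 peaks. A longer list lowers the share where its added peaks fall in the windows less often than the others. What lies behind the lower TRE-Msi1 shares was not tested. When every list was limited to its 4863 strongest peaks, the windows held 8 and 6 wild-type peaks against 3 and 5 TRE-Msi1 peaks, so the direction of the difference turned. That cut takes the most peaks from the longer TRE-Msi1 lists by construction.

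**Figure D1:**
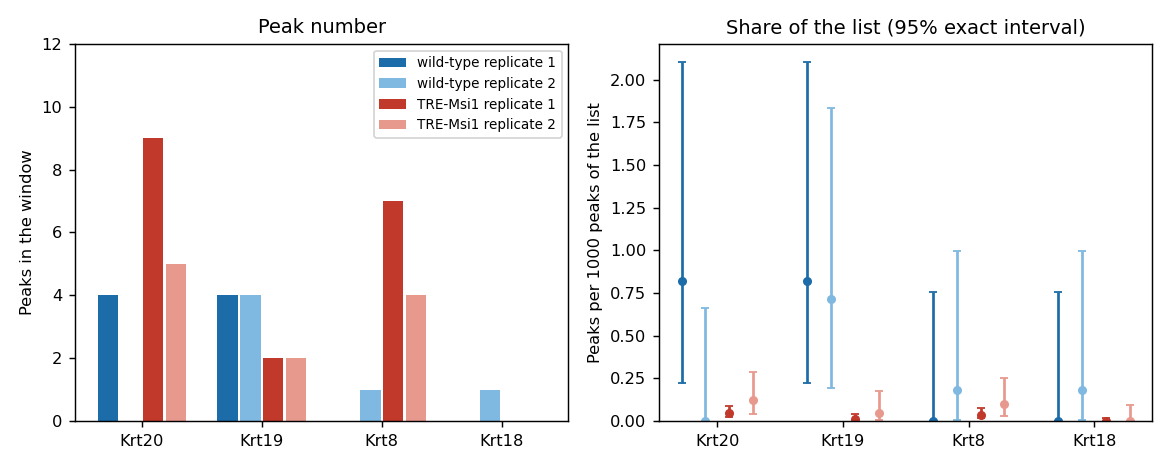
Peaks in each keratin window by library (left, number of peaks) and as peaks per 1000 peaks of the library's list (right, points with 95% exact binomial intervals). Krt20 and Krt8 have the higher bars in both TRE-Msi1 libraries and Krt19 in both wild-type libraries; per 1000 peaks, the TRE-Msi1 values of Krt19 (0.0105 and 0.0490) lie below its wild-type values (0.823 and 0.717).

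Krt20, the keratin of differentiated enterocytes, held 4 and 0 peaks in wild-type replicates 1 and 2, and 9 and 5 in TRE-Msi1 replicates 1 and 2. Both TRE-Msi1 libraries were above both wild-type libraries, and the wild-type pair disagreed. The group means were 2 ± 2.83 and 7 ± 2.83 (SD, n = 2 each). The difference of 5 peaks was 3 without TRE-Msi1 replicate 1 or wild-type replicate 2, and 1 in lists of equal length, where the counts were 4, 0, 3 and 3 in the same order. In wild-type replicate 2 the nearest peak on this strand lay 96431 bp from the closest Krt20 peak of wild-type replicate 1. Per 1000 peaks of the list, the Krt20 values were 0.823 and 0 in the wild-type and 0.0475 and 0.123 in the TRE-Msi1 libraries, which overlap between the groups.

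For scale, the genome was divided by strand into tiles of 10 kb, close to the length of the Krt20 window. Of the 145665 tiles with a peak in any list, 6.2% had both TRE-Msi1 lists above both wild-type lists, as the Krt20 and Krt8 windows did. Among the 1174 tiles with at least 10 peaks in the 4 lists together, which is nearer to the 18 peaks of Krt20 and the 12 of Krt8, the share was 51.6%. Within single lists, 0.647% of the tiles with a TRE-Msi1 replicate 1 peak held at least the 9 peaks of the Krt20 window, and 2.63% of those with a TRE-Msi1 replicate 2 peak held at least its 5. In wild-type replicate 1, 2.33% of tiles with a peak held at least 4.

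Krt20 peaks gathered near the 3′ edge of the window, and the highest-scoring ones of both TRE-Msi1 libraries lay there. Within 1 kb of that edge were 3 of the 4 peaks in wild-type replicate 1, and 5 of 9 and 3 of 5 in TRE-Msi1 replicates 1 and 2. In wild-type replicate 1 these peaks lay at chr11:99289714-99289787, chr11:99290024-99290097 and chr11:99290111-99290184, at percentiles 93.9, 96.6 and 94.99 by row order. The other wild-type peak lay near the 5′ edge at chr11:99298989-99299062, at percentile 70.5. All wild-type Krt20 peaks thus came from 1 library, where those at the 3′ side stood earlier in the list than the one at the 5′ side.

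The 3 strongest Krt20 peaks of TRE-Msi1 replicate 1 were chr11:99290253-99290292 (percentile 99.3), chr11:99290117-99290156 (98.6) and chr11:99290030-99290069 (97.7). In TRE-Msi1 replicate 2 they were chr11:99290194-99290268 (99.6), chr11:99289673-99289747 (95.7) and chr11:99289933-99290007 (92.4). In both TRE-Msi1 libraries the strongest peak was the one farthest from the 3′ edge among those in the last 1 kb, centred 772 and 731 bp from it. Those 2 peaks shared 16 bp, chr11:99290253-99290268. No wild-type peak overlapped either of them, although peaks of wild-type replicate 1 ended 69 and 10 bp away. In wild-type replicate 1 the Krt20 peak listed first was centred 560 bp from the edge.

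**Figure D2:**
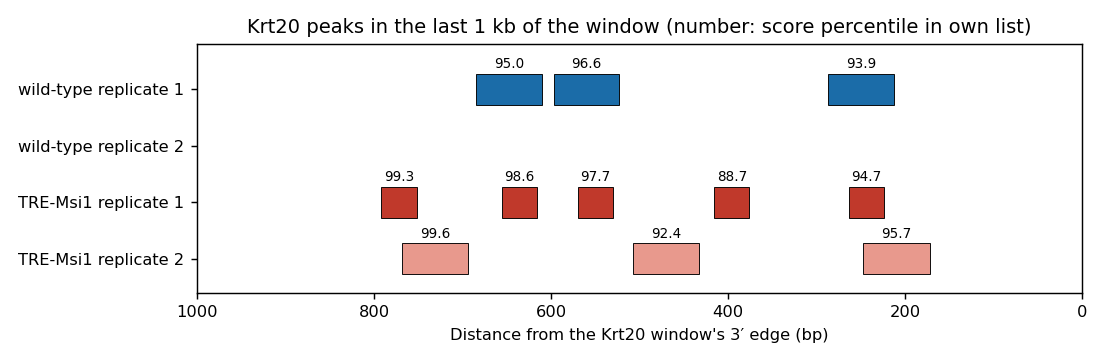
Krt20 peaks in the last 1 kb of the window, drawn to scale by distance from its 3′ edge (bp), one row per library, with each peak's score percentile in its own list above it (by row order in wild-type replicate 1). The strongest TRE-Msi1 peaks (percentiles 99.3 and 99.6) lie farther from the edge than all 3 peaks of wild-type replicate 1, and wild-type replicate 2 has none.

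When overlapping peaks of any library were joined into sites, Krt20 had 12 sites. A peak of wild-type replicate 1 and at least 1 TRE-Msi1 peak met at 4 sites, and 8 sites had TRE-Msi1 peaks only. The site at chr11:99289673-99289787 was listed in 3 libraries, wild-type replicate 1 and both TRE-Msi1 replicates, which had 23 bp in common. All 4 wild-type Krt20 peaks met a peak of TRE-Msi1 replicate 1, against 43.1% of the whole wild-type replicate 1 list. Of these 4, 1 met a peak of TRE-Msi1 replicate 2, against 30.8% of that wild-type list. Over all 5 keratin peaks of wild-type replicate 1 that overlapped TRE-Msi1 replicate 1, the centres were 3 to 18 bp apart (median 11). Over the 2094 such peaks of the whole list the median was 28 bp (quartiles 14 and 42). The keratin median was also lower for wild-type replicate 2 with TRE-Msi1 replicate 1 (19.5 against 32.5 bp, 2 keratin peaks). It was lower for the TRE-Msi1 pair too (24.5 against 30.5 bp, 4 keratin peaks). It was higher for TRE-Msi1 replicate 2 with wild-type replicate 1 (40.5 against 25.5 bp, 3 keratin peaks). So it was for TRE-Msi1 replicate 2 with wild-type replicate 2 (25 against 11 bp, 3 keratin peaks). In the wild-type pair it was higher too (22.5 against 15.5 bp, 3 keratin peaks). Between the ends of the Krt20 window, its middle held single peaks of 1 TRE-Msi1 library each, centred 4724, 6524 and 7284 bp from the 3′ edge.

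Krt19, the type I keratin found along the crypt and villus, ran the other way. It held 4 peaks in each wild-type library and 2 in each TRE-Msi1 library, so the groups did not overlap and the replicates were equal within each group. The difference was 2 peaks fewer in TRE-Msi1, at means of 4 ± 0 and 2 ± 0 (SD, n = 2 each). Leaving out any 1 library left it at 2, as it must with equal replicates. In lists of equal length the counts were 4 and 4 in the wild-type and 0 and 1 in the TRE-Msi1 libraries. Equal length removes the most peaks from the longer TRE-Msi1 lists by construction. In the top 25% of each list the counts were 0 and 3 against 0 and 1, where the groups overlap. Both wild-type lists were above both TRE-Msi1 lists in 0.0281% of all tiles with a peak, and in 0.17% of the tiles with at least 10 peaks. A tile could count only with a peak in both wild-type lists. Of the 145665 tiles, 3608 and 5041 held a peak of wild-type replicates 1 and 2, so list length keeps these shares small. They do not measure how unusual Krt19 is. These shares are given as background, since the counts themselves helped to choose the gene.

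The Krt19 window is shorter than a tile, and its counts are set beside the 10 kb tiles as a description. Among tiles with a peak in the same list, at least 4 peaks were found in 2.33% and 0.615% (wild-type replicates 1 and 2). At least 2 peaks were found in 25.5% and 31.6% (TRE-Msi1 replicates 1 and 2). Per 1000 peaks of the list, Krt19 had 0.823 and 0.717 in the wild-type libraries and 0.0105 and 0.0490 in the TRE-Msi1 libraries.

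Krt19 also held the 1 keratin site that was listed in all 4 libraries. It spanned chr11:100002797-100002915, centred 1356 bp from the 3′ edge. In wild-type replicates 1 and 2 the peaks were chr11:100002831-100002904 and chr11:100002797-100002871. In TRE-Msi1 replicates 1 and 2 they were chr11:100002851-100002890 and chr11:100002841-100002915. All 4 had 21 bp in common, chr11:100002851-100002871. Their percentiles were 72.5, 92.1, 66.2 and 98.2 in that order, and in the 3 libraries with scores this was the highest-scoring Krt19 peak. In wild-type replicate 1 it was the Krt19 peak listed first.

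A second Krt19 site, near the 5′ edge at chr11:100006854-100006975, was listed in 3 libraries. The peaks of wild-type replicates 1 and 2 (chr11:100006902-100006975 and chr11:100006879-100006953) and TRE-Msi1 replicate 2 (chr11:100006854-100006928) stood at percentiles 35.5, 50.8 and 57.5. The nearest TRE-Msi1 replicate 1 peak was at least 3964 bp from each of them. A further site was listed in both wild-type libraries and in neither TRE-Msi1 library, with peaks at chr11:100003363-100003436 (percentile 36.5) and chr11:100003350-100003424 (90.3). The TRE-Msi1 peaks nearest to them were 435 to 473 bp away. The fourth wild-type peaks were each found in 1 library, at chr11:100007031-100007104 in replicate 1 (38.8) and chr11:100002340-100002414 in replicate 2 (79.2). The remaining TRE-Msi1 peak, chr11:100002286-100002325 in replicate 1 (32.7), lay 15 bp from the latter.

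**Figure D3:**
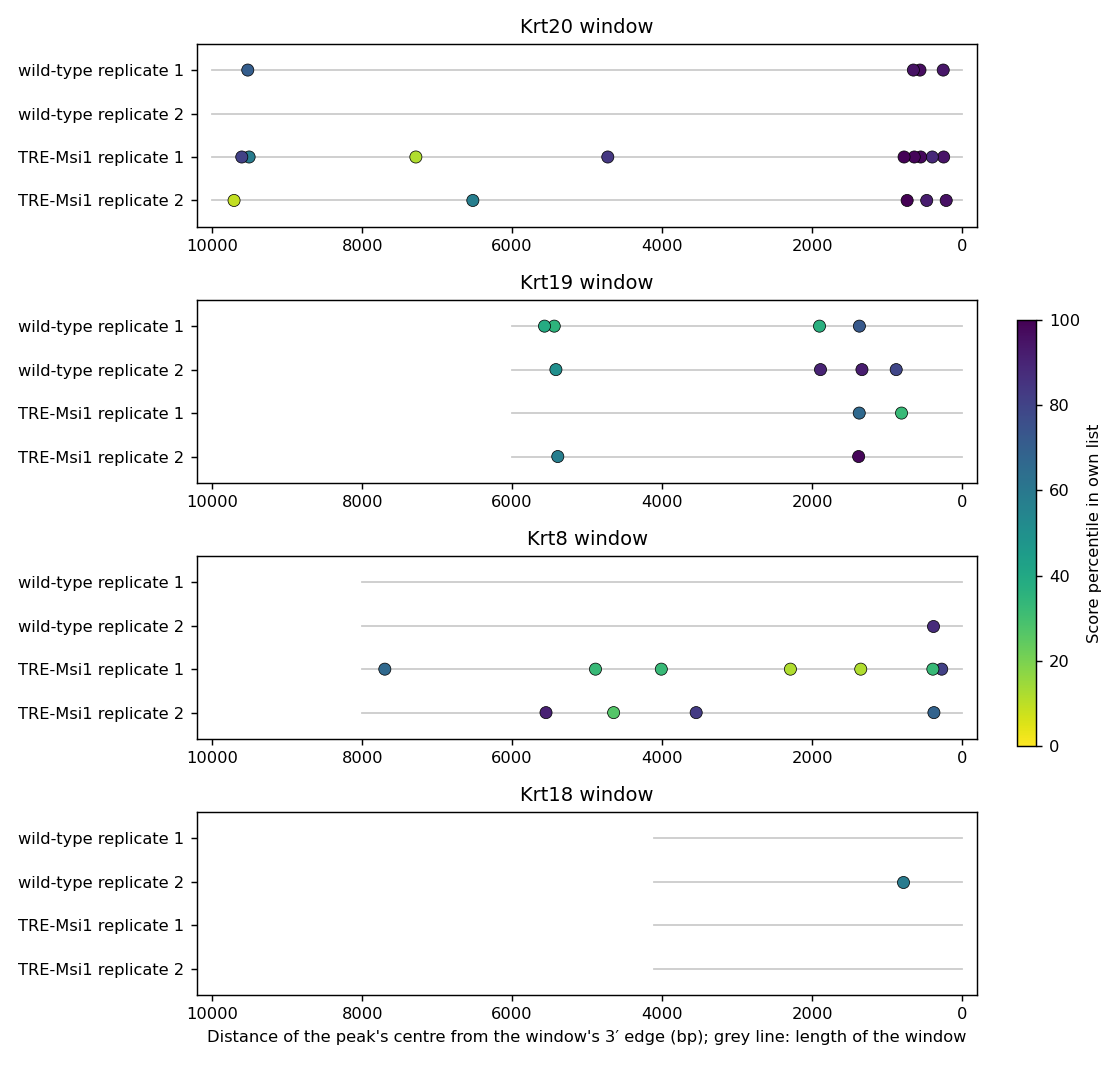
Centres of all 43 keratin peaks by distance from the 3′ edge of the gene's window (bp, transcription from left to right), one row per library, coloured by score percentile within the library's own list (by row order in wild-type replicate 1). Krt20 peaks crowd at the 3′ edge, Krt19 has a column of peaks near 1356 bp in all 4 libraries, Krt8 peaks of the TRE-Msi1 libraries spread over the window, and Krt18 has a single peak.

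Krt8, the type II partner of the other 3 keratins, held 0 and 1 peaks in the wild-type libraries and 7 and 4 in TRE-Msi1 replicates 1 and 2. The groups did not overlap, with means of 0.5 ± 0.707 and 5.5 ± 2.12 (SD, n = 2 each) and a difference of 5 peaks. Both TRE-Msi1 lists were likewise above both wild-type lists in 51.6% of tiles with at least 10 peaks. Among all tiles with a peak it was 6.2%. In lists of equal length the counts were 0 and 1 in both groups, and the difference was 0. Per 1000 peaks, Krt8 had 0 and 0.179 in the wild-type and 0.0369 and 0.0981 in the TRE-Msi1 libraries, which overlap. At least as many peaks as in the Krt8 window were found in 1.58% of tiles with a TRE-Msi1 replicate 1 peak and 5.88% of those with a TRE-Msi1 replicate 2 peak.

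Krt8 peaks of the TRE-Msi1 libraries had a lower median percentile than those of Krt20. It was 32.7 and 75.7 in TRE-Msi1 replicates 1 and 2, against 88.7 and 92.4 for Krt20. Over the whole lists, 1.18% of TRE-Msi1 replicate 1 peaks and 5.67% of replicate 2 peaks met a peak of the other TRE-Msi1 list. At Krt8 it was 1 of 7 and 1 of 4. Sites listed in a single library were 7 of the 12 at Krt20. Of the 10 Krt8 sites, 9 were listed in 1 TRE-Msi1 library only. The exception lay at the 3′ side, at chr15:101827337-101827423, where wild-type replicate 2 (chr15:101827349-101827423, percentile 87.6), TRE-Msi1 replicate 1 (chr15:101827369-101827408, 32.7) and TRE-Msi1 replicate 2 (chr15:101827337-101827411, 68.7) all had a peak. The narrow peak of TRE-Msi1 replicate 1, 40 bp long, lay wholly within the other 2.

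The strongest Krt8 peaks of the TRE-Msi1 libraries were elsewhere in the window and differed between them. In TRE-Msi1 replicate 1 they were chr15:101827250-101827289 (80.8) and chr15:101834679-101834718 (66.2), followed by 3 peaks tied at percentile 32.7: the shared one, chr15:101830990-101831029 and chr15:101831869-101831908. In TRE-Msi1 replicate 2 they were chr15:101832511-101832585 (91.0) and chr15:101830508-101830582 (82.7), ahead of the shared one. The Krt8 peaks of TRE-Msi1 replicate 2 outside the shared site lay 186 to 603 bp from the nearest peak of TRE-Msi1 replicate 1.

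Krt18, the usual type I partner of Krt8, held 1 peak in wild-type replicate 2 and 0 in the other 3 libraries. That peak, chr15:101861772-101861846, was centred 791 bp from the 3′ edge and stood at percentile 58.7. Widening the windows by 2000 bp changed the count of this gene alone. A peak of TRE-Msi1 replicate 1 at chr15:101858263-101858302 (percentile 90.3) lay 198 bp outside its 5′ edge, and no other same-strand peak of any library lay within 2000 bp outside the 4 windows. Narrowing them by 500 bp left Krt18 as it was and lowered the counts to 3, 0, 6 and 3 for Krt20, 3, 4, 2 and 2 for Krt19 and 0, 0, 4 and 3 for Krt8, with the wild-type pair given first. The outermost peaks inside lay 173 and 254 bp from the edges for Krt20, 786 and 396 bp for Krt19, 250 and 282 bp for Krt8, and 3272 and 754 bp for Krt18.

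Keratin peaks in the top 10% of a list came mainly from Krt20. They numbered 3 of 8 in wild-type replicate 1, all at Krt20, where 9.99% of the whole list passed this mark. In wild-type replicate 2 there were 2 of 6, both at Krt19, against 10.8% of the list. In TRE-Msi1 replicate 1 there were 4 of 18, all at Krt20, against 10.4%, and in TRE-Msi1 replicate 2 there were 5 of 11 (3 at Krt20 and 1 each at Krt19 and Krt8), against 9.82%. With row order standing in for the score in wild-type replicate 1, the median percentile over the keratin peaks was 71.5 and 83.4 in the wild-type and 66.2 and 82.7 in the TRE-Msi1 libraries. The group means of 77.5 ± 8.42 and 74.5 ± 11.7 (SD, n = 2 each) differed by less than the spread between replicates.

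Between replicates, keratin peaks overlapped in part. Krt19 was the only one of the 4 genes with peaks in both wild-type lists, so no other gene could overlap there. In the wild-type pair, 3 of the 8 replicate 1 peaks, all at Krt19, had 1 bp or more in common with a same-strand peak of replicate 2, against 10.6% of the whole replicate 1 list. In the TRE-Msi1 pair, 4 of the 11 replicate 2 peaks met a peak of replicate 1, 2 at Krt20 and 1 each at Krt19 and Krt8, against 5.67% of the list. With any replicate 1 peak within 500 bp counted, 8 of the 11 did, and with lists of equal length 1 of 5.

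Between groups, 6 of the 8 keratin peaks in the first wild-type list met a peak of a TRE-Msi1 library, against 58.4% of its whole list. For wild-type replicate 2 it was 3 of 6, against 20.2%. Read from the induced side, 6 of 18 peaks of TRE-Msi1 replicate 1 overlapped a wild-type peak, against 1.24% of its list, and 4 of 11 of TRE-Msi1 replicate 2, against 5.19%. The keratin peaks were not matched with the rest of a list on score, so whether their overlap exceeds that of equally strong peaks was not tested. Of the 29 keratin sites, 7 held peaks of both groups, 18 of TRE-Msi1 libraries only and 4 of wild-type libraries only.

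The place of peaks along the windows overlapped between the groups. The 25% of each window next to its 3′ edge held 50% and 66.7% of keratin peaks in the wild-type libraries and 55.6% and 45.5% in the TRE-Msi1 libraries. The means were 58.3 ± 11.8% and 50.5 ± 7.14% (SD, n = 2 each), a difference of -7.83 percentage points that is smaller than the wild-type SD and larger than the TRE-Msi1 SD.

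The stretches beside the windows were counted too. On the opposite strand of the 4 windows there were 0 peaks in each of the 4 libraries. The stretch between the Krt20 and Krt19 windows, 702 kb on chromosome 11, spans in the RefSeq gene order of GRCm38.p6 a cluster of 55 genes, among them 12 keratin genes and 23 keratin-associated protein genes, many of which serve hair and skin. On the minus strand it held 0 peaks in both wild-type libraries and 16 and 3 in TRE-Msi1 replicates 1 and 2. That is 0.228 and 0.0427 peaks per 10 kb in the TRE-Msi1 libraries, below the averages per strand of chromosome 11 (0.444 and 0.117), against 6.87 and 4.37 in the Krt20 and Krt19 windows, which were chosen for their peaks. On its plus strand there were 0 and 1 wild-type peaks, and 30 and 0 in TRE-Msi1 replicates 1 and 2. For TRE-Msi1 replicate 1 that is 0.427 per 10 kb, near its chromosome average per strand (0.444). For TRE-Msi1 replicate 2 it is 0, against 0.117. Between the Krt8 and Krt18 windows, 23.5 kb on chromosome 15, the minus strand held 0 peaks in every library and the plus strand 3, all in TRE-Msi1 replicate 1 and including the one beside Krt18. That is 1.28 per 10 kb in that library, above its average per strand of chromosome 15 (0.343).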

How the data were processed

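Msi1 CLIP-seq peak lists were deposited by the authors, 1 for each of the 4 libraries, with coordinates, a strand and a score. Per the submitters' processing notes, Bowtie, HOMER and the build mm9 were used; the sources used here give no version, setting or role for them. The unit of the deposited score is not stated, and scores were used as ranks within a list, with ties sharing their mean rank. Groups and replicate numbers came from the sample titles, and the protocols speak of 2 mice per group. The members, windows and alternatives were chosen with earlier results of these data known. For each gene, all wild-type peaks and the 3 highest-scoring peaks of each TRE-Msi1 list were named. Overlap needed 1 bp on the same strand. Tiles of 10 kb were filled by peak centres. Shares carry 95% exact binomial intervals. Starts were read as 0-based and are printed 1-based. Median width was then 74 bp in wild-type replicate 1 against 75 bp in wild-type replicate 2 and TRE-Msi1 replicate 2. Starts of wild-type replicate 1 may therefore be 1 bp off. Overlaps were checked on simulated lists and against bedtools 2.31.1, with 0 differing peaks over 36 comparisons. No test was made. The scripts ran in Python 3.11.15 with pandas 2.3.3, numpy 2.4.6 and scipy 1.17.1. RefSeq gene names (GRCm38.p6) served for gene order only.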

Additional observations from a re-analysis of the deposited data

How the results depend on the processing

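The difference of 7.5 keratin peaks between the groups fell to 3.5 in the top 25% of each list and turned to -3 in lists of equal length, where the longer TRE-Msi1 lists lose the most peaks by construction. It ranged from 4 to 11 with 1 library left out, and from 4.5 to 8 under the other 5 alternatives. The difference in median percentile (-3.01) ranged from -11.3 to 5.27 with 1 library left out and that in the share near the 3′ edge (-7.83 percentage points) from -16.2 to 0.505, so neither has a settled direction. The 4 TRE-Msi1 replicate 2 peaks shared with replicate 1 became 2 with a reciprocal overlap of 50%, 8 within 500 bp, 2 in the top 25% of each list and 1 in lists of equal length. The share of tiles with both TRE-Msi1 lists above both wild-type lists (6.2%) was 4.23% with 5 kb and 9.08% with 20 kb tiles, and 51.6% for tiles with at least 10 peaks, an alternative chosen after seeing the data. Krt19 kept fewer TRE-Msi1 peaks in the mean under all 11 alternatives (-3.5 to -1), and Krt20 kept more (1 to 7). The Krt20 groups met with windows narrowed by 500 bp (3, 0, 6 and 3, wild-type pair first). They also met in the top 25% of each list (3, 0, 7 and 3) and overlapped in lists of equal length (4, 0, 3 and 3). For Krt19 several of the alternatives could not change the result. Its replicates were equal within each group, so leaving a library out changed nothing. Counting either strand, widening the windows or counting repeated intervals once had no Krt19 or Krt20 peak to add or remove. Equal list length takes the most peaks from the TRE-Msi1 side. No paired analysis was possible because no result comes from a test and no label ties a wild-type to a TRE-Msi1 mouse. Read depth, which is unknown, limits every comparison of peak numbers.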
